A study of Mus musculus with 6 samples.

Results

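The Polycomb repressive complex genes described here were 10 of the 21878 genes listed in each library, taken by gene symbol: Ezh1, Ezh2, Eed, Suz12 and Jarid2 of Polycomb repressive complex 2 (PRC2), Bmi1, Ring1, Rnf2 and Cbx7 of Polycomb repressive complex 1 (PRC1), and Asxl1. Asxl1 belongs to neither complex, since it is a subunit of PR-DUB, the deubiquitinase that acts against PRC1. The rule itself used no measured value. RNA-seq was done on hematopoietic stem cells (HSCs) sorted from the bone marrow (BM) of C57BL/6 mice labelled WT, with the gate Lineage-, Sca-1+, c-Kit+, Flt3- (Flk2-) and CD34-. Vehicle-treated control mice gave 3 libraries, and mice given 1 subcutaneous dose of recombinant mouse IGF1 the day before gave the other 3. The treatment label, the title and the design name IGF1, while the extraction text of the same samples speaks of irradiated mice, and IGF1 was taken here without use of the values. The age of the mice is not in the labels. Nothing in the sources used here says whether replicates were separate mice or pools, so the p-values measure only the spread between these libraries, which may be technical.

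Polycomb proteins keep developmental genes silent. PRC2 methylates histone H3 on lysine residue K27 through EZH1 or EZH2, which work only together with EED and SUZ12, and JARID2 helps to bring the complex to chromatin. PRC1 attaches ubiquitin to histone H2A through RING1 or RNF2 (RING1B), paired with a PCGF protein such as BMI1, and in its canonical form a CBX protein such as CBX7 reads the mark left by PRC2. In HSCs, Bmi1 is known for its need in self-renewal, and its best known target is the Cdkn2a locus, which encodes inhibitors of the cell cycle.

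The 250 bases before the annotated start of 4 members are shown because these genes stood furthest from no change in their directions: Rnf2 and Bmi1 were lower, and Ring1 and Suz12 higher, in the IGF1 libraries than in control replicates 1 and 3. The sequences are from RefSeq on the GRCm38.p6 build, 5′ to 3′ on the strand of the gene. Capitals mark matches on either strand to the GC box (GGGCGG), the CCAAT box (CCAAT), the ETS site (CCGGAAG) and the E2F octamers TTTCCCGC and TTTGGCGC, and neighbouring matches may overlap. Rnf2 lies at chr1:151469398-151500991 on the minus strand and its window at chr1:151500992-151501241. Bmi1 lies at chr2:18677018-18686629 on the plus strand and its window at chr2:18676768-18677017. Ring1 lies at chr17:34020792-34024680 on the minus strand and its window at chr17:34024681-34024930. Suz12 lies at chr11:79993106-80034123 on the plus strand and its window at chr11:79992856-79993105.
Rnf2: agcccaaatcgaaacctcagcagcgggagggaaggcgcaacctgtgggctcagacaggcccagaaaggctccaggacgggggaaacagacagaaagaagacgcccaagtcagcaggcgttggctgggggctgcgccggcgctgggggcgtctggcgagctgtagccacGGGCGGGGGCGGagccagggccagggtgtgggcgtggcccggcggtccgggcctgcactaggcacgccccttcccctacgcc
Bmi1: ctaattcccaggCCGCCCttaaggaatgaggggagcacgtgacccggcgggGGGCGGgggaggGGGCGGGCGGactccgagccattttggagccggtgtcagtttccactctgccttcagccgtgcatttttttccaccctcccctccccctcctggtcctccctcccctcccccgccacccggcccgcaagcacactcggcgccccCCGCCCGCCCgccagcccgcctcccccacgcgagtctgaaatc
Ring1: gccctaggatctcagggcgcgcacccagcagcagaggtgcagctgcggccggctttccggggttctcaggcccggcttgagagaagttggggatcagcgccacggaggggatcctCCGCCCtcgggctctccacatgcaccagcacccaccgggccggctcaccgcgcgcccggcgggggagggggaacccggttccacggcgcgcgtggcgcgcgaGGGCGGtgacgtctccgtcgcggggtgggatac
Suz12: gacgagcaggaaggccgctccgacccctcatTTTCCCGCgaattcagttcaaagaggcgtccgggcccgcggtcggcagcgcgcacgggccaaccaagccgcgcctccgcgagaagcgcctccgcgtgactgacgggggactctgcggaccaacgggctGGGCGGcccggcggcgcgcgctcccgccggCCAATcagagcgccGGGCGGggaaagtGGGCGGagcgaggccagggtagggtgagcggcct

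All 4 windows held GC boxes, 2 in Rnf2, 6 in Bmi1, 2 in Ring1 and 3 in Suz12, a motif found in 32.7% of the 32851 annotated promoter windows of the same length. Suz12 alone of the 10 members had an E2F octamer in its window, 219 bases before the start, against 1.30% of all windows with either octamer. Suz12 also had a CCAAT box (33.8% of windows), as did Ezh2, Jarid2 and Cbx7, and Asxl1 had an ETS site (6.91%). The windows of Eed and Ezh1 held no match. A match is a description of letters and says nothing of binding in these cells.

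One control library stood apart before any gene was compared. Depth was about 16000000, 11500000 and 16100000 reads in control replicates 1, 2 and 3 and between 11300000 and 12900000 in the IGF1 libraries, as recovered from the steps of the deposited values. On the first principal component of all genes tested, with 93.2% of the variance, control replicates 1 and 3 lay at -64.7 and -64.8, the IGF1 libraries between 36.6 and 37.8 and control replicate 2 at 17.8. The median chi-squared per gene was 0.66 between control replicates 1 and 3, 35.3 or more between either of them and control replicate 2, and 5.69 to 6.34 between control replicate 2 and the IGF1 libraries. Fold changes and paralog ratios are therefore given with and without control replicate 2, whose label was not changed. That choice rests on the values themselves, so the p-values of fits without control replicate 2 depend on it. Those p-values come from 2 control libraries that lie close together and are not read as independent evidence. The genes of the gate gave a mixed picture. Ly6a (Sca-1) was at 219 to 615 FPKM and Kit at 24.2 to 105 FPKM, the 2 genes of the positive gates, while Cd34 (230.2 to 640 FPKM) and Flt3 (117 to 188 FPKM), on whose proteins cells were gated out, were also high in every library. Of other HSC genes, which were no part of the gate, Slamf1 was at 0.74 to 2.41 FPKM and Procr at 11.5 to 18.7 FPKM. The cells are called by their sort label only. FPKM counts the fragments of a gene relative to the length of its transcript and to the depth of the library. In bulk RNA, fewer cells of a type and less RNA per cell cannot be told apart.

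The question of the comparison was how expression in HSCs differed the day after IGF1. A gene counted as called in limma on log2(FPKM + 1) when it differed more than 2-fold with a Benjamini-Hochberg adjusted p under 0.05, which held for 6.61% of the 10449 genes tested. All 10 Polycomb members passed the filter on low values and 0 of them were called. Voom on the recovered reads also called 0 members, where it called 1059 of all genes. In the main fit 5 members had an unadjusted p under 0.05. The share of all genes at that limit is not given here, so this count is not read as a result. By adjusted p alone, without the fold limit, Ring1 was higher after IGF1, and 0 members were lower, against 6.26% of all genes higher and 14.1% lower by this rule. The control and IGF1 libraries did not overlap for 6 of the 10 members, close to the 59.4% of all genes tested. Without control replicate 2, Eed, Bmi1 and Rnf2 were called lower and 0 members higher, where 32.9% of all genes were called, 20.6% lower and 12.3% higher. In that fit 9 of 10 members passed the adjusted p alone, but so did 88.5% of all genes. The median log2 fold change was -0.10 over the members and -0.18 over all genes tested (-0.24 over all genes without control replicate 2), and fold changes near these values are not read as a direction.

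**Figure D1:**
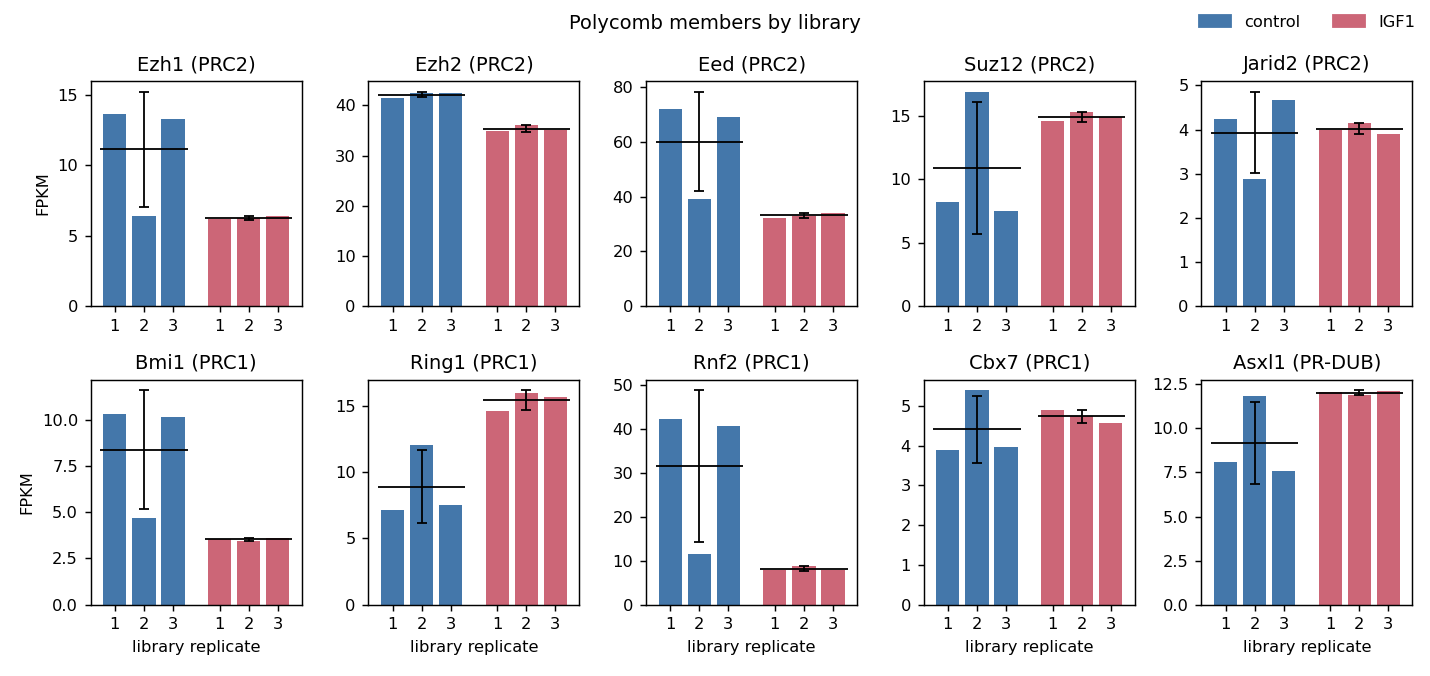
FPKM of each of the 10 Polycomb members in every library, with a bar per library from 0, blue for control and red for IGF1; the horizontal line is the group mean and the error bar its SD over 3 libraries. Control replicate 2 stands away from replicates 1 and 3 for every gene but Ezh2, and for Ezh1 it reaches 6.40 FPKM, within the IGF1 range of 6.17 to 6.43 FPKM.

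Among the PRC2 members, the catalytic subunits were unlike each other. Ezh2, the main H3 methyltransferase of dividing cells, was at 41.5, 42.5 and 42.5 FPKM in control replicates 1, 2 and 3 and at 34.9, 36.1 and 35.1 FPKM in IGF1 replicates 1, 2 and 3. It was the member with the least spread among controls, with control replicate 2 beside the other controls, and the groups did not overlap. Its means were 42.2 ± 0.57 FPKM in control and 35.4 ± 0.68 FPKM in IGF1 (SD, n = 3 each), a log2 fold change of -0.25 ± 0.09 (SE, limma adjusted p = 0.0689). This is near the median of all genes, and the difference was 0.01 after quantile normalization and 0.27 with trends in transcript length and GC content removed, so no direction is given for Ezh2. Leaving out control replicate 2 gave -0.24 (limma adjusted p = 0.000201).

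Ezh1, the paralog that is typical of resting cells, was at 13.7, 6.40 and 13.3 FPKM in the controls and at 6.17, 6.23 and 6.43 FPKM after IGF1. Control replicates 1 and 3 were about alike, control replicate 2 lay among the IGF1 libraries, and the groups overlapped. The log2 fold change was -0.67 ± 0.28 (SE, limma adjusted p = 0.0998), and without control replicate 2 it was -0.99 (limma adjusted p = 6.5e-08), just short of the fold limit. With all libraries kept it was -0.37 after quantile normalization and -0.39 with length and GC trends removed. The recovered reads behind these values were 922, 311 and 902 in the controls and 322, 297 and 349 after IGF1.

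Eed, the subunit that binds methylated H3 and stimulates the enzyme, had the highest level of the members in control replicates 1 and 3. Its values were 72.0, 39.2 and 69.1 FPKM in the control libraries and 32.1, 33.0 and 34.1 FPKM after IGF1. Every IGF1 library was below every control, and control replicate 2 lay 77.8% of the way from the other controls to the IGF1 mean on the log2 scale. The log2 fold change was -0.79 ± 0.24 (SE, limma adjusted p = 0.0576), and without control replicate 2 Eed fell by 1.07 (limma adjusted p = 4.0e-09).

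Suz12, which holds the PRC2 core together, stood in the opposite direction. It was at 8.22, 16.9 and 7.55 FPKM in the controls and at 14.6, 15.3 and 14.9 FPKM after IGF1. Control replicate 2 was above all IGF1 libraries, so the groups overlapped, while control replicates 1 and 3 were below them. For Suz12 the log2 fold change was 0.51 ± 0.29 (SE, limma adjusted p = 0.189), against 0.84 without control replicate 2 (limma adjusted p = 2.6e-07). It was 0.31 without control replicate 3, and 1.09 with all libraries kept and length and GC trends removed.

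Jarid2, the cofactor, was at 4.25, 2.89 and 4.66 FPKM in the controls and at 3.99, 4.15 and 3.91 FPKM after IGF1. The IGF1 values lay inside the range of the controls, with a log2 fold change of 0.04 ± 0.17 (SE, limma adjusted p = 0.834). The sign turned without control replicate 2 (-0.12, limma adjusted p = 0.133) and with length and GC trends removed (-0.10).

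With all libraries and no trend removed, the PRC1 members held both the lowest and the highest log2 fold change of the 10 genes, those of the paralogs Rnf2 and Ring1, whereas with length and GC trends removed Suz12 was the highest. Rnf2, which encodes the main ubiquitin ligase of PRC1 in most cells, was at 42.3, 11.6 and 40.8 FPKM in the controls and at 7.87, 8.82 and 8.04 FPKM after IGF1. All IGF1 libraries were below all controls, and control replicate 2 was nearer to them than to the other controls. The means were 31.6 ± 17.3 FPKM and 8.24 ± 0.51 FPKM (SD, n = 3 each), and the log2 fold change was -1.62 ± 0.49 (SE, limma adjusted p = 0.0561). Without control replicate 2, Rnf2 fell by 2.20 (limma adjusted p = 2.9e-10). With length and GC trends removed and all libraries kept, the log2 fold change was -0.98. The reads recovered for Rnf2 were 2211, 438 and 2145 in the controls and 318, 326 and 338 after IGF1.

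Ring1 encodes the other ligase. Its values were 7.15, 12.1 and 7.50 FPKM in the control libraries and 14.6, 16.0 and 15.7 FPKM after IGF1, where the lowest IGF1 library was above the highest control. The means were 8.90 ± 2.74 FPKM and 15.4 ± 0.72 FPKM (SD, n = 3 each). The log2 fold change was 0.76 ± 0.20 (SE, limma adjusted p = 0.0490), 0.98 without control replicate 2 (limma adjusted p = 1.0e-07), and 1.04 after quantile normalization, where Ring1 passed both limits (limma adjusted p = 0.0481). With length and GC trends removed it was 0.76 and did not pass (limma adjusted p = 0.0610), nor did it with no filter on low values (0.0594) or a pseudocount of 5 (0.0506). Leaving out any other single library raised the adjusted p of limma to between 0.159 and 0.165.

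Bmi1, the PCGF subunit of canonical PRC1, was at 10.3, 4.67 and 10.1 FPKM in the controls and at 3.54, 3.44 and 3.62 FPKM after IGF1. The groups did not overlap, and in the IGF1 libraries Bmi1 had the lowest level of the 10 members. For Bmi1 the log2 fold change was -0.98 ± 0.29 (SE, limma adjusted p = 0.0546), and without control replicate 2 Bmi1 fell by 1.31 (limma adjusted p = 1.8e-08). With length and GC trends removed it was -0.34.

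Cbx7, the chromodomain subunit, was at 3.88, 5.39 and 3.96 FPKM in the controls and at 4.89, 4.75 and 4.57 FPKM after IGF1. The groups overlapped through control replicate 2, which was the highest library. The log2 fold change was 0.10 ± 0.14 (SE, limma adjusted p = 0.589), 0.22 without control replicate 2 (limma adjusted p = 0.00991) and -0.14 with length and GC trends removed, so its sign depended on the processing.

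Asxl1, which activates the deubiquitinase BAP1 and is often mutated in clonal hematopoiesis, was at 8.10, 11.85 and 7.58 FPKM in the controls and at 12.04, 11.89 and 12.13 FPKM after IGF1. Control replicate 2 lay just below the lowest IGF1 library, 96.6% of the way from the other controls to the IGF1 mean. For Asxl1 the log2 fold change was 0.38 ± 0.18 (SE, limma adjusted p = 0.125), and 0.56 without control replicate 2 (limma adjusted p = 5.1e-06), under the fold limit.

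**Figure D2:**
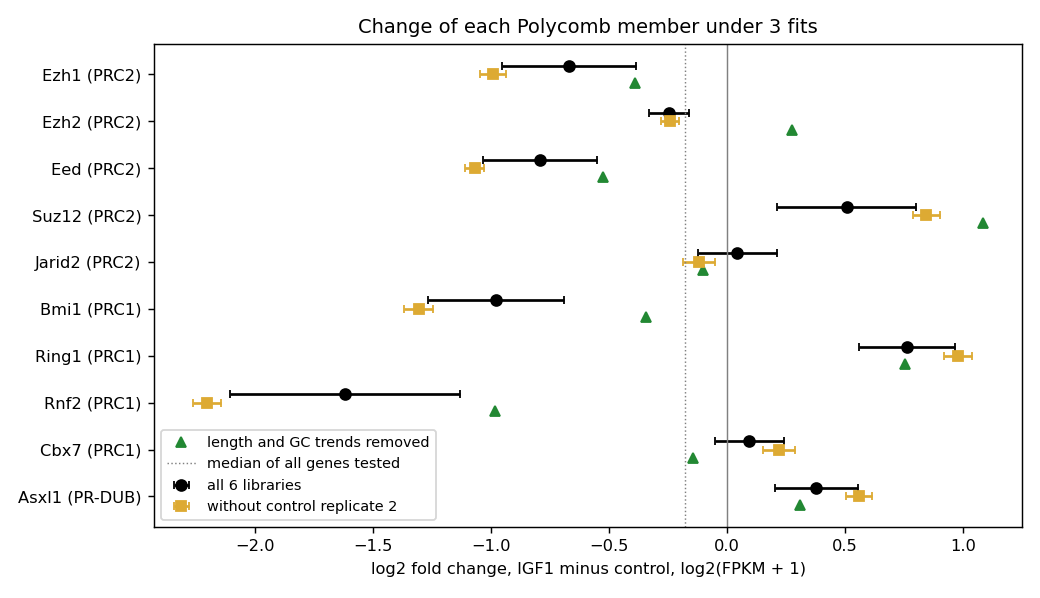
Log2 fold change of each member, IGF1 minus control, with all 6 libraries (black circles), without control replicate 2 (yellow squares) and with length and GC trends removed (green triangles); error bars are the SE of limma, the triangles carry none, and the dotted line is the median of all genes tested at -0.18. Rnf2 lies furthest to the left at -1.62 and -2.20, and the markers of Ezh2, Jarid2 and Cbx7 fall on both sides of 0.

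The order of the levels differed between the groups. In control replicates 1 and 3 the order by mean FPKM was Eed (70.5), Ezh2 (42.0), Rnf2 (41.5), Ezh1 (13.5), Bmi1 (10.2), Suz12 (7.88), Asxl1 (7.84), Ring1 (7.33), Jarid2 (4.45) and Cbx7 (3.92). Ezh2 and Rnf2 overlapped between these libraries, as did Suz12 and Asxl1, and all other neighbours were apart. With control replicate 2 included, no neighbours in the order were apart in all control libraries. After IGF1 the order was Ezh2 (35.4), Eed (33.1), Ring1 (15.4), Suz12 (14.9), Asxl1 (12.02), Rnf2 (8.24), Ezh1 (6.27), Cbx7 (4.74), Jarid2 (4.02) and Bmi1 (3.54). There Ring1 and Suz12 were the sole neighbours that overlapped. Rnf2 and Ring1 thus stood in the opposite order in the 2 sets of libraries.

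Compared by complex, the members did not form separate blocks. The mean log2(FPKM + 1) of the 5 PRC2 members exceeded that of the 4 PRC1 members by 0.65, 0.82 and 0.64 in control replicates 1, 2 and 3 and by 0.90, 0.90 and 0.92 in the IGF1 libraries. The groups differed by 0.20 in this gap, and by 0.26 without control replicate 2. Both complexes held genes on both sides, with the PRC2 fold changes running from -0.79 (Eed) to 0.51 (Suz12) and the PRC1 fold changes from -1.62 (Rnf2) to 0.76 (Ring1) on the log2 scale. No test was made of a score over members.

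Paralogs were also set against each other within each library, as the log2 ratio of (FPKM + 1), and 6 pairs were compared with an exact permutation test, 2-sided, which with 3 libraries against 3 cannot go below p = 0.1. The log2 ratio of Rnf2 to Ring1 was 2.41, -0.05 and 2.30 in the controls and -0.82, -0.79 and -0.88 after IGF1. Rnf2 was above Ring1 in control replicates 1 and 3, about level with it in control replicate 2 and below it in all IGF1 libraries. The groups differed by -2.38 (exact p = 0.1, adjusted over the pairs 0.12) and by -3.18 without control replicate 2. As a share of the summed FPKM of both genes, Rnf2 was 85.5%, 49.1% and 84.5% in the controls and 35.0%, 35.6% and 33.9% after IGF1, and the sum itself was 49.5, 23.7 and 48.3 FPKM against 22.5, 24.8 and 23.7 FPKM.

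The log2 ratio of Ezh2 to Ezh1 was 1.54, 2.56 and 1.61 in the controls and 2.32, 2.36 and 2.28 after IGF1. Control replicate 2 was above all IGF1 libraries here, so the groups overlapped, with a difference of 0.42 (exact p = 0.4, adjusted 0.40). Leaving it out gave a difference of 0.75 and groups that did not overlap. Ezh2 made up 75.2%, 86.9% and 76.2% of the summed EZH FPKM in the controls and 84.5% to 85.3% after IGF1.

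For Bmi1 against Pcgf2 (MEL18), which compete for the same place in canonical PRC1, the log2 ratio was 3.44, 1.70 and 3.23 in the controls and 1.02, 1.01 and 1.03 after IGF1, a difference of -1.77 (exact p = 0.1, adjusted 0.12) and of -2.31 without control replicate 2. The size of this difference rested on the pseudocount, at -3.17 with 0.1 and -0.85 with 5. Bmi1 remained above Pcgf2 in every library. Pcgf2 was thinly covered, with 3, 37 and 13 recovered reads in the controls and 66, 59 and 70 after IGF1, so the counting error of the ratio is large in control replicates 1 and 3. Among all 6 PCGF genes, which define the kinds of PRC1, the share of Bmi1 was 15.2%, 9.02% and 14.9% in the controls and 6.81% to 7.92% after IGF1. The share of Pcgf1, the subunit of the BCOR complex, was 41.1% in control replicate 2, at most 20.8% in the other controls and 42.8% to 46.4% after IGF1, while that of Pcgf6 was 38.8%, 20.4% and 38.4% against 19.8% to 21.6%.

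The other pairs had smaller differences or concerned the erasers of the mark. The log2 ratio of Cbx7 to Cbx8, both readers of PRC1, was 0.20, 0.65 and 0.29 in the controls and 0.78, 0.71 and 0.66 after IGF1 (a difference of 0.34, exact p = 0.1, adjusted 0.12, and of 0.47 without control replicate 2), with control replicate 2 next to the lowest IGF1 library. The log2 ratio of Asxl1 to Asxl2 was 1.18, 1.36 and 1.17 in the controls and 1.55, 1.60 and 1.56 after IGF1 (a difference of 0.33, exact p = 0.1, adjusted 0.12, and of 0.40 without control replicate 2). For the demethylases Kdm6a (UTX) and Kdm6b (JMJD3), which remove methyl groups from H3, it was 0.85, -0.80 and 0.88 in the controls and -1.93, -1.61 and -1.74 after IGF1, a difference of -2.07 (exact p = 0.1, adjusted 0.12) and of -2.63 without control replicate 2. Kdm6a was above Kdm6b in control replicates 1 and 3 and below it in the other libraries.

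**Figure D3:**
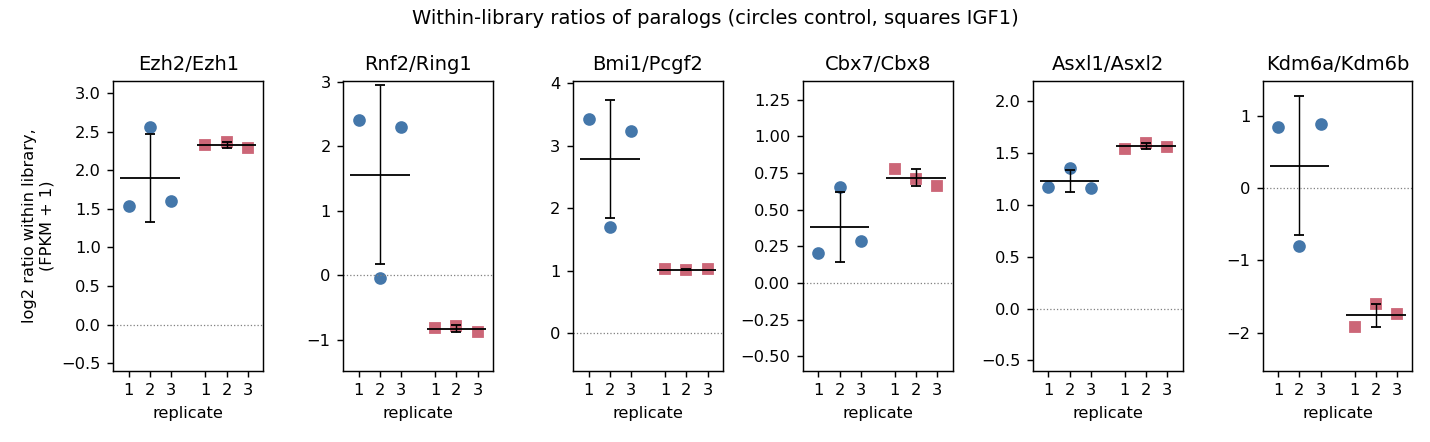
Log2 ratio of (FPKM + 1) of 6 paralog pairs within each library, control as blue circles and IGF1 as red squares, with the group mean as a line and the SD over 3 libraries as the error bar; the y axes differ. The ratio of Rnf2 to Ring1 is above 2 in control replicates 1 and 3, near 0 in control replicate 2 and near -0.83 in the IGF1 libraries.

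**Figure D4:**
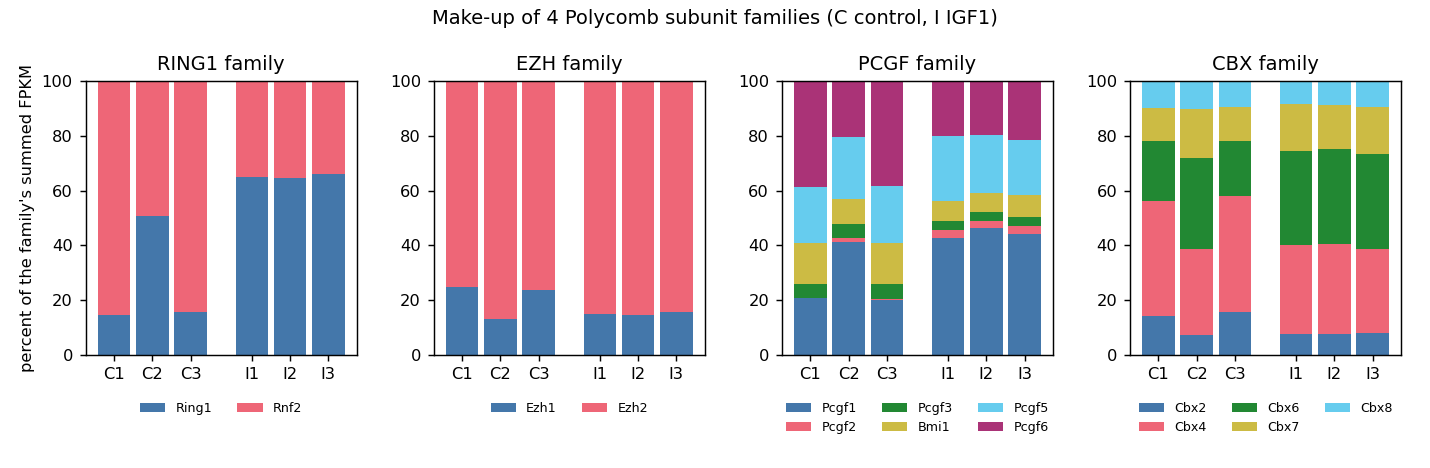
Share of each gene in the summed FPKM of its family, in percent, for the RING1, EZH, PCGF and CBX families in control (C) and IGF1 (I) replicates 1 to 3. The share of Rnf2 goes from 85.5% and 84.5% in control replicates 1 and 3 to 33.9% to 35.6% after IGF1, with control replicate 2 between them at 49.1%.

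Besides further Polycomb subunits and demethylases, the other lists held 11 trithorax genes, which oppose Polycomb, and 10 loci that Polycomb is known to silence. Together the lists held 70 genes, of which 56 could be tested. Of these 1 was called higher (1.98% of all genes) and 4 lower (4.63% of all genes), and by adjusted p alone 3 were higher (6.26% of all genes) and 7 lower (14.1% of all genes). Their median log2 fold change was 0.07, against -0.18 for all genes tested. Without control replicate 2 the calls were 12 higher and 10 lower, where 12.3% of all genes were called higher and 20.6% lower. Of the calls in these lists, 6 higher and 3 lower were of trithorax genes. The shares of all genes given here apply to the counts of the single lists and markers below as well.

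Of 9 further PRC2 subunits, 2 were called and both fell: Rbbp4, from 76.4, 39.4 and 77.6 FPKM in the controls to 26.1, 26.1 and 25.2 FPKM after IGF1 (log2 fold change -1.22, limma adjusted p = 0.0412), and Rbbp7, from 389.5, 137 and 389.9 FPKM to 91.1, 97.2 and 91.8 FPKM (-1.55, limma adjusted p = 0.0498). Both are histone chaperones that other chromatin complexes use as well, and as close paralogs they may share reads. Phf1, which helps PRC2 to bind chromatin, had the smallest adjusted p among those on the other side, with a log2 fold change of 0.45 (limma adjusted p = 0.0556). With length and GC trends removed neither was called, at a log2 fold change of -0.76 for Rbbp4 and of -1.14 for Rbbp7 (limma adjusted p = 0.0615). The call of Rbbp7 was also lost with either other pseudocount, with either other filter, with quantile or 75th percentile scaling and with no variance trend, at adjusted p between 0.0502 and 0.0620.

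Among 9 tested subunits of canonical PRC1, 0 were called. Pcgf2 rose by adjusted p alone, with the few reads given above (log2 fold change 0.79, limma adjusted p = 0.0457), and Cbx8 had the smallest adjusted p on the other side (-0.24, limma adjusted p = 0.0863). Of 16 tested subunits of variant PRC1, which lacks the CBX readers of canonical PRC1, 1 was called. Yaf2 fell from 33.9, 20.3 and 34.8 FPKM to 13.1, 14.0 and 13.6 FPKM (-1.04, limma adjusted p = 0.0391). Its change was under the fold limit with a pseudocount of 5 (-0.87), quantile normalization (-0.73) and 75th percentile scaling (-0.79). Rybp, the paralog of Yaf2, rose by adjusted p alone, from 1.04, 1.505 and 1.15 FPKM to 2.64, 2.42 and 2.73 FPKM (0.69, limma adjusted p = 0.0308). Both proteins occupy the same site on RING1 and RNF2. Pcgf3 (-0.68, limma adjusted p = 0.0363) and Dcaf7 (-0.94, limma adjusted p = 0.0490), which work in the same variant complexes, fell by adjusted p alone, and Dcaf7 was named after its values were seen.

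In the PR-DUB list 0 of 8 tested genes were called. Ogt, the glycosyltransferase bound to that complex, fell by adjusted p alone (-0.54, limma adjusted p = 0.0474, and -0.10 with length and GC trends removed), and Asxl2 had a log2 fold change of 0.04 (limma adjusted p = 0.794). Mbd6 was at 1.09, 9.05 and 1.16 FPKM in the controls and at 15.2, 15.4 and 15.0 FPKM after IGF1, and did not pass in the main fit (2.18, limma adjusted p = 0.0526). With all libraries kept it was called with a pseudocount of 5 (1.32, limma adjusted p = 0.0479), by voom (2.83, adjusted p of voom 0.0475) and with library weights (2.93). With length and GC trends removed Mbd6 was not called (1.64, limma adjusted p = 0.0679). Kdm6b rose from 2.96, 7.52 and 3.06 FPKM to 14.4, 13.2 and 13.7 FPKM (1.51, limma adjusted p = 0.0383), and Kdm6a had a log2 fold change of -0.56 (limma adjusted p = 0.0693).

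The trithorax genes, whose COMPASS complexes methylate H3 at active genes and oppose Polycomb, had 1 call among 11. Ash2l, a core subunit, fell from 64.4, 26.9 and 63.2 FPKM to 17.7, 18.3 and 16.9 FPKM (-1.39, limma adjusted p = 0.0457). The methyltransferase Setd1b was at 0.61, 2.69 and 0.55 FPKM in the controls and at 3.97, 4.13 and 3.68 FPKM after IGF1 (1.23, limma adjusted p = 0.0523). It was called after quantile normalization (1.30, limma adjusted p = 0.0466), by voom on recovered reads (2.09, adjusted p of voom 0.0469) and with library weights (1.63). With length and GC trends removed, all 11 log2 fold changes of this list lay closer to no change, at 0.43 for Setd1b and -0.83 for Ash2l. With all libraries and no trend removed, the median of this list was 0.84. Without control replicate 2 the list had 6 calls higher and 3 lower. That list's calls stood beside 12.3% of all genes called higher and 20.6% lower in that fit.

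For the 5 called genes of these lists, the log2 fold changes without control replicate 2 were -1.54 (Rbbp4), -2.05 (Rbbp7), -1.28 (Yaf2), -1.80 (Ash2l) and 1.88 (Kdm6b), and all were called. Those of the other named genes were 0.55 (Phf1), 1.01 (Pcgf2), -0.25 (Cbx8), 0.78 (Rybp), -0.77 (Pcgf3), -1.23 (Dcaf7), -0.68 (Ogt), 0.16 (Asxl2), 2.93 (Mbd6), -0.75 (Kdm6a) and 1.64 (Setd1b), of which Pcgf2, Dcaf7, Mbd6 and Setd1b were then called. With length and GC trends removed and all libraries kept, none of the 5 was called, with log2 fold changes of -0.77 for Yaf2, -0.83 for Ash2l and 0.96 for Kdm6b, while Rybp was (1.22, limma adjusted p = 0.0352). Leaving out any single library other than control replicate 2 left 0 genes called in these lists.

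**Figure D5:**
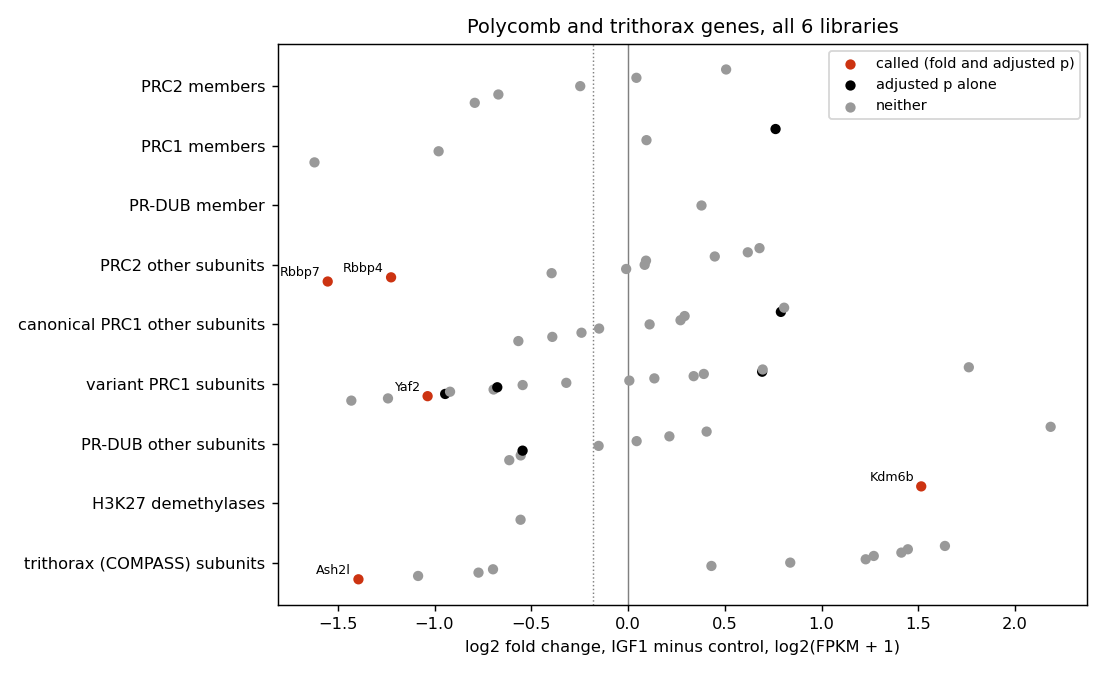
Log2 fold change, IGF1 minus control, of every tested Polycomb member and of the tested genes of 6 further lists with all 6 libraries, where red points were called, black points passed the adjusted p alone and grey points neither, and the dotted line is the median of all genes at -0.18. The 5 called genes are Rbbp4, Rbbp7, Yaf2 and Ash2l on the left and Kdm6b on the right.

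Genes that Polycomb is known to silence were mostly at or near 0 in both groups. Cdkn2a, Cdkn2b, Gata4, Sox1, Olig2 and Nkx2-1 were listed at 0 in every library, Gata6 and Pax6 were at 0.15 FPKM or less, and Pax5, a B cell regulator, was between 0.02 and 0.58 FPKM. Ebf1, which starts the B cell program, was the sole one of 10 that could be tested, at 0.47, 2.94 and 0.72 FPKM in the control libraries and 2.14, 1.85 and 1.64 FPKM after IGF1 (0.41, limma adjusted p = 0.371, and 0.85 without control replicate 2, limma adjusted p = 2.8e-05, under the fold limit).

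Other signals moved with the same libraries. The summed FPKM of 7 proliferation genes was 1052 and 1068 in control replicates 1 and 3, 809 in control replicate 2 and 579 to 581 after IGF1, with 1 gene called lower (1 higher and 4 lower without control replicate 2), while Mki67, a marker of cycling cells, was at 7.55, 21.0 and 7.83 FPKM in the controls and at 24.8, 24.9 and 23.3 FPKM after IGF1 (1.10, limma adjusted p = 0.069, and 1.54 and called without control replicate 2). The sum of 6 B cell genes was 110.3 to 111 FPKM in control replicates 1 and 3, 419 in control replicate 2 and 388 to 404 after IGF1, with 0 called (4 higher without control replicate 2) and Ms4a1 under 0.5 FPKM throughout. The sum of 10 neutrophil and monocyte genes was 2280 to 2313 in control replicates 1 and 3, 2450 in control replicate 2 and 2453 to 2459 after IGF1, with 4 called lower (1 higher and 5 lower without control replicate 2) and Ly6g under 0.5 FPKM. The sum of 11 HSC genes was 494 to 508, 722 and 462 to 478 FPKM in the same order, with 0 called (5 lower without control replicate 2). For the progenitor genes Cd34, Flt3 and Cd48, the last of which was no part of the gate, it was 1029 to 1033, 555 and 505 to 517 FPKM, with 0 called (2 lower without control replicate 2). For 7 T and NK cell genes the sums were 360 to 372, 779.5 and 770.0 to 790.3 FPKM, with 0 called (1 higher without control replicate 2) and Cd3e and Cd8a under 0.5 FPKM. For 8 erythroid genes they were 36.2 to 39.1, 103 and 48.6 to 55.4 FPKM, for 6 megakaryocyte and platelet genes 57.5 to 58.0, 77.1 and 96.4 to 107 FPKM (1 called higher, and 3 without control replicate 2), and for 5 stromal and endothelial genes 32.7 to 35.3, 17.8 and 21.4 to 22.4 FPKM. The part of these signals in the values of the Polycomb genes was not tested.

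Sequence properties set the members apart from each other as well. The longest annotated transcripts of Rnf2 and Bmi1 had a GC content of 39.5% and 40.2%, and that of Ring1 56.9%, against a median of 49.7% over the genes tested. That of Suz12 was 41.6%, and the part of GC content in the values was not tested beyond the fit with trends removed. The exons of Ezh2, Eed, Suz12, Rnf2, Cbx7 and Asxl1 share between 100 and 261 bases with a gene on the opposite strand (158 bases with Trmt1l for Rnf2), and the sources used here do not say whether reads were counted by strand, so reads of the partner could enter these values. The recovered reads per member and library ran from 233 to 2887, a counting error of 1.86% to 6.55%, which is small beside the gaps between control replicate 2 and the other controls for Rnf2, Bmi1, Eed and Ezh1.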

How the data were processed

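RNA from sorted HSCs was sequenced with a stranded mRNA kit, and the authors deposited 1 FPKM value per gene symbol and library. The file headers name no unit, and FPKM was taken from the values, whose steps within a gene gave whole reads for 14838 of 14838 genes above 0 in at least 2 libraries (tolerance 0.02 reads). The scale of depth is approximate, since 31.2% of 1384 single-transcript genes shared the most frequent value. The submitters' processing notes name fastp, HISAT2, StringTie and GRCm38/mm10, while the methods of the study name fastp, RSEM and DESeq2. Groups came from the treatment labels.

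The filter kept genes that reached 1 FPKM in 3 or more libraries. The test was limma 3.58.1 (lmFit, eBayes with a trend) in R 4.3.3 on log2(FPKM + 1), over all 6 libraries, 2-sided, with Benjamini-Hochberg adjustment over all 10449 genes. Fold changes on this scale understate those of low genes. No count model was the main test because the unit is not a count. Paralog ratios were compared with exact permutation tests in SciPy 1.17.1. Length and GC trends were removed with a loess fit (span 0.3) over the 10101 genes tested with annotation (96.7%). The fits were tested on simulated data.

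The members and lists were chosen with earlier results of these data known. Genes named were all members, all called genes of the Polycomb, demethylase, trithorax and Polycomb-repressed lists, the gene with the smallest adjusted p in each direction of each list, the paralogs and Mki67. Dcaf7, the PCGF genes of the shares, the further repressed loci and the sort markers were named in addition. Epop was matched under its older symbol. Protein sequences were not used here.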

Additional observations from a re-analysis of the deposited data

How the results depend on the processing

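With each alternative taken in turn, 0 members were called under most settings, with 1 called after quantile normalization, 3 with library weights, 1 by adjusted p alone and 0 to 3 when each library was left out, where the 3 came without control replicate 2. In all, 691 genes were called, against 223 with a pseudocount of 5, 374 with no filter, 3435 with library weights, 1059 by voom on recovered reads, 315 with length and GC trends removed and 2130 by adjusted p alone. Leaving out libraries gave 0 to 3438, with 0 for each library except control replicate 2. Among the genes of the other lists, trithorax genes and silenced loci included, the number of calls was 5. It was 3 with no filter, 2 with scaling to the 75th percentile, 22 with library weights and 8 by voom. It was 1 with trends removed (Rybp, not among the 5), 10 by adjusted p alone and 0 to 22 when libraries were left out. Of all calls 30.0% were higher, and 53.5% and 53.7% after quantile and 75th percentile scaling, with a median of all genes of -0.01 and 0.04. The gap between PRC2 and PRC1 was 0.12 with a pseudocount of 5 and 0.13 with a minimum of 5 FPKM. It ran from 0.17 to 0.26 when libraries were left out.

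Signs turned for Ezh2 (0.0059 with quantile, 0.0023 with 75th percentile scaling, 0.27 with trends removed), Jarid2 (-0.11 with weights, -0.12 to 0.15 when libraries were left out, the lowest without control replicate 2, and -0.10 with trends removed), Cbx7 (-0.14 with trends removed) and Asxl2 (-0.033 to 0.16 when libraries were left out, the lowest without control replicate 3, and -0.0049 with trends removed). The cause was not tested. Of the other values of single genes under an alternative, 370 kept direction and side of the threshold, 47 lost the call and 22 gained one. The correlations of same-numbered deviations were -0.057, -0.050 and 0.0057. They could not show whether replicate numbers pair the libraries, since control replicate 2 dominates the deviations of all controls. The replicate block gave 0 called genes, 0 members and 0 genes of the other lists.

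The paralog differences kept their sign. Besides Bmi1 to Pcgf2, those that moved by over 1.5 times were Ezh2 to Ezh1 (0.26 with a pseudocount of 5, 0.75, 0.24 and 0.28 without control replicates 2, 1 and 3), Cbx7 to Cbx8 (0.17 with a pseudocount of 5), Asxl1 to Asxl2 (0.52 with quantile normalization) and Kdm6a to Kdm6b (-1.33 with a pseudocount of 5). Depth limits Pcgf2, at 3 reads in control replicate 1.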
